A study of Rattus norvegicus with 12 samples.

Results

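Kupffer cells, the resident macrophages of the liver, were followed in rat liver through 10 genes: the Kupffer cell and macrophage markers Clec4f, Cd5l, Adgre1, Marco, Cd163, Vsig4 and Fcna, and the complement genes C1qa, C1qb and C1qc. Each probe set annotated to one of these genes alone was taken. Such probe sets existed for 8 of the 10 genes (9 probe sets), among 14218 genes with a probe set of their own. No probe set was annotated to Marco or Vsig4, which were not analysed here. All 8 genes passed the filter on dim probe sets, which used the mean over all 12 arrays and left 11842 genes tested. The second Cd5l probe set did not pass it.

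The samples were livers of 12 male Sprague-Dawley rats aged 10 weeks, dosed by gavage every 24 h over a 72 h exposure. There were 4 groups of 3 rats. Untreated or vehicle status of the control group is not stated, and the treated groups received 300 mg/kg/day of myclobutanil, the same dose of propiconazole, or triadimefon at 175 mg/kg/day, a lower dose. The compounds are triazole antifungals, and each liver was hybridised to its own Affymetrix rat genome array.

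Kupffer cells sit in the liver sinusoids, where they take up microbes, particles, aged red cells and dying cells from the blood. Most complement proteins in plasma come from hepatocytes, whereas C1q is made mainly by macrophages. C1q is built from A, B and C chains, binds antibody complexes or dying cells, and starts the classical complement pathway through the proteases C1r and C1s. Ficolins such as the product of Fcna are soluble lectins that start the lectin pathway through MASP proteases.

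Levels are in log-like units, from deposited scores that were quantile normalized here. Since their log base is unknown, no difference is a fold change. For scale, the spike-in control cre read 2.61 units above the spike-in bioB (median over arrays, 2.30 to 3.20). In bulk liver, fewer cells of a type and less RNA per cell cannot be told apart. One array stood apart from the rest: myclobutanil replicate 1 had a deposited median of 0.157 against 0.0182 to 0.0552 on the other 11 arrays, and a median correlation with the other arrays of 0.931 against 0.963 to 0.982. Results that rest on it are given with and without it. RNA quality, read from how far the 3' GAPDH probe set stood above the 5' one, overlapped between control (0.368 to 0.808) and myclobutanil arrays (0.478 to 0.716).

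In myclobutanil-treated liver the Kupffer cell genes were lower than in control liver as a group. Clec4f, Cd5l, C1qa, Fcna, C1qc and Adgre1 fell, with differences of -1.35 ± 0.224 (SE from limma, n = 3 arrays per group), -1.32 ± 0.277, -1.002 ± 0.156, -0.889 ± 0.0829, -0.731 ± 0.141 and -0.304 ± 0.0633 units. C1qb and Cd163 stood at -0.657 ± 0.150 and -0.514 ± 0.133 and did not pass the test. Thus all 8 differences were below 0 and 6 of 8 genes passed, where 0.98% of all genes tested were called lower in this comparison. The genes were chosen with earlier results of these data known. Shares over all genes are therefore given for scale and do not test the set. In all 8 genes the 3 myclobutanil arrays lay below the 3 control arrays, as they did in 14.2% of all genes. The median difference of the 8 genes was -0.810 against -0.0129 over all genes. With propiconazole and triadimefon none of the 8 passed.

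**Figure D1:**
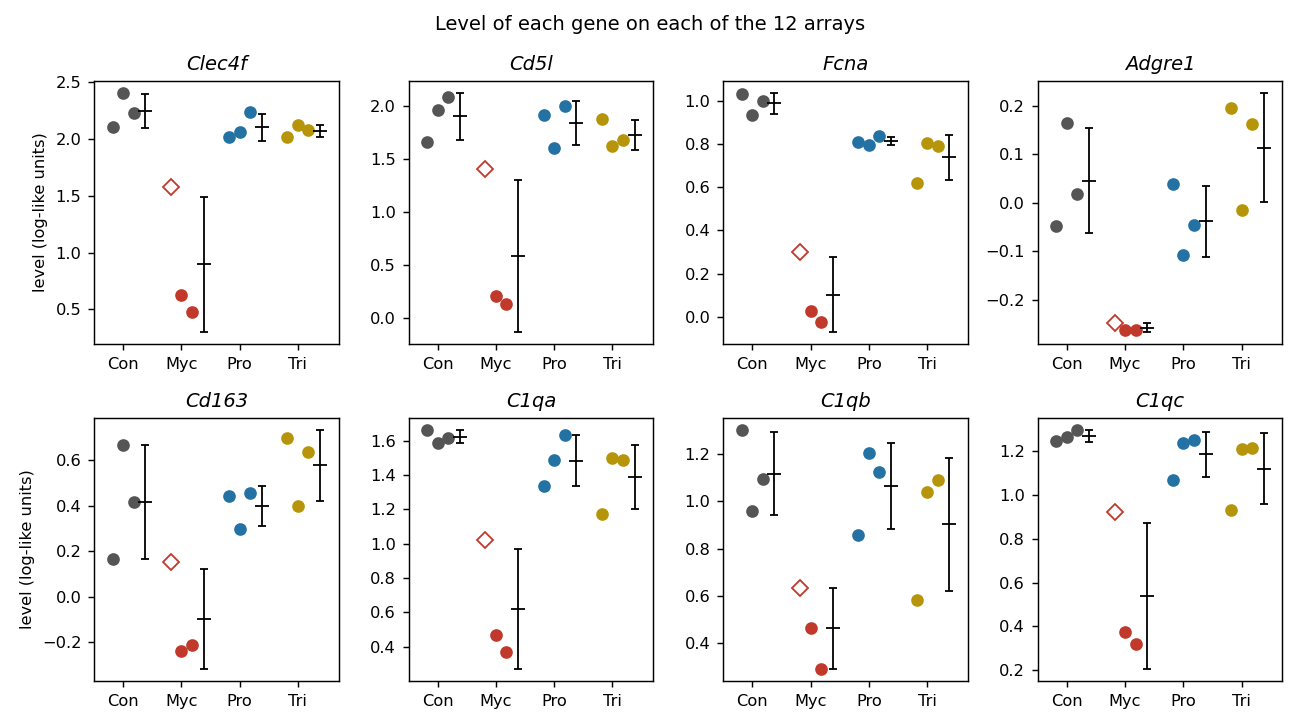
Level of each gene in log-like units (y axis, own scale per panel) on the 3 arrays of each group, replicates 1 to 3 from left to right: Con, control; Myc, myclobutanil; Pro, propiconazole; Tri, triadimefon. The open diamond is myclobutanil replicate 1, and the black bar is the mean ± SD (n = 3). In every panel the myclobutanil arrays lie below the control arrays.

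Clec4f encodes a C-type lectin receptor that in rodents is found on Kupffer cells and hardly elsewhere. Its probe set (1368755_at) read 2.11, 2.41 and 2.23 on the control arrays and 1.58, 0.626 and 0.481 on the myclobutanil arrays. It read 2.01, 2.06 and 2.24 with propiconazole and 2.02, 2.12 and 2.08 with triadimefon. The myclobutanil arrays were thus the lowest of the 12, with replicate 1 between the others and the remaining arrays. On the control arrays Clec4f stood on average at the 98.2 percentile of all probe sets, on the myclobutanil arrays at the 84.9 percentile. The difference of -1.35 had a 95% interval of -1.84 to -0.862 (limma adjusted p = 0.0176).

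Cd5l encodes a protein that tissue macrophages secrete into blood. Its tested probe set (1385635_at) read 1.66, 1.96 and 2.08 in control and 1.41, 0.209 and 0.136 with myclobutanil. It read 1.92, 1.60 and 1.99 with propiconazole and 1.88, 1.62 and 1.67 with triadimefon. Replicate 1 of myclobutanil lay close under the lowest array of the other groups, and replicates 2 and 3 far below. The difference from control was -1.32 (95% interval -1.92 to -0.708, limma adjusted p = 0.0417). The second Cd5l probe set (1386843_at) was at the dim end of every group, with means of -0.511 ± 0.0285 (SD, n = 3) in control and -0.501 ± 0.208 with myclobutanil, and was not tested.

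Fcna encodes ficolin A, a lectin of plasma that macrophages of liver and spleen produce. Its probe set (1387794_at) read 1.03, 0.937 and 1.002 in control and 0.300, 0.0272 and -0.0234 with myclobutanil. With propiconazole it read 0.812, 0.797 and 0.837, and with triadimefon 0.621, 0.807 and 0.793. Here the 3 compounds all lay below control without overlap, myclobutanil by far the lowest. Against control the myclobutanil difference of -0.889 (95% interval -1.07 to -0.707) had the smallest p of the 8 genes and ranked 3 of 21729 probe sets (limma adjusted p = 0.00212). Fcna was also the gene of the 8 that kept its call against control whichever of the 12 arrays was left out.

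Adgre1 encodes the F4/80 antigen, an adhesion G protein-coupled receptor of macrophages. Its probe set (1381311_at) was among the dimmer ones tested, at the 40.9 percentile of all probe sets by its mean. It read -0.0470, 0.165 and 0.0187 in control and -0.247, -0.263 and -0.264 with myclobutanil. The propiconazole arrays read 0.0380, -0.108 and -0.0450 and the triadimefon arrays 0.195, -0.0150 and 0.162. In these normalized levels the myclobutanil arrays were the lowest and within 0.0163 units of each other, so replicate 1 did not stand apart. In the deposited scores it did: replicate 1 read -0.134 and replicates 2 and 3 read -0.275 and -0.289. Propiconazole replicate 2 had a deposited score of -0.131. The difference from control was -0.304 (95% interval -0.443 to -0.165, limma adjusted p = 0.0407).

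Cd163 encodes the scavenger receptor that takes up haptoglobin with bound hemoglobin, known in rat as the ED2 antigen. Its probe set (1393917_at) read 0.168, 0.666 and 0.415 in control and 0.154, -0.236 and -0.211 with myclobutanil. It read 0.441, 0.297 and 0.454 with propiconazole and 0.695, 0.4002 and 0.635 with triadimefon. Myclobutanil replicate 1 lay just below control replicate 1, the lowest control array. The difference of -0.514 did not pass (95% interval -0.807 to -0.221, limma adjusted p = 0.0753).

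The 3 chains of C1q were measured by 1 probe set each, and all of them were lower with myclobutanil on each of the 3 arrays than on any control array. C1qa (1376652_at), the A chain, read 1.66, 1.59 and 1.62 in control and 1.02, 0.469 and 0.372 with myclobutanil, a difference of -1.002 (95% interval -1.34 to -0.660, limma adjusted p = 0.0133). C1qc (1373025_at), the C chain, read 1.25, 1.26 and 1.30 in control and 0.923, 0.375 and 0.320 with myclobutanil, a difference of -0.731 (95% interval -1.04 to -0.420, limma adjusted p = 0.0337). Both were tight among the control rats, with SDs of 0.0381 and 0.0265. C1qb (1370215_at), the B chain, read 1.30, 0.958 and 1.09 in control and 0.631, 0.463 and 0.289 with myclobutanil. Its control arrays were further apart (SD 0.175), and the difference of -0.657 missed the threshold (95% interval -0.987 to -0.328, limma adjusted p = 0.0530).

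With propiconazole the C1q genes read 1.33, 1.49 and 1.63 (C1qa), 0.860, 1.21 and 1.13 (C1qb) and 1.07, 1.24 and 1.25 (C1qc). With triadimefon they read 1.17, 1.499 and 1.49 (C1qa), 0.580, 1.04 and 1.09 (C1qb) and 0.934, 1.21 and 1.22 (C1qc). Replicate 1 was the lowest array of its group for all 3 chains under both compounds, and in C1qb triadimefon replicate 1 (0.580) lay below myclobutanil replicate 1 (0.631).

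The genes of the C1q chains lie side by side on rat chromosome 5 in the RefSeq annotation of the GRCr8 assembly, in the order C1qb, C1qc, C1qa with no other annotated gene between them. The promoter table of that assembly held 9 of the 10 genes. The 250 bases before the gene start are shown for 5 of these 9, 5′ to 3′ on the strand of the gene. The 5 were picked with the data in view. Their levels were all lower on the myclobutanil arrays than on the control arrays. The same held for Adgre1 and Cd163, which also had an entry and are not shown. Capitals mark GAGGAA, a core that PU.1 and other ETS factors of myeloid cells can bind, and TGCTGA, a core of the element that MAF factors bind, each searched on both strands. The 2 motifs overlapped nowhere in these windows.

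C1qa (chr5:154419934-154420183, minus strand): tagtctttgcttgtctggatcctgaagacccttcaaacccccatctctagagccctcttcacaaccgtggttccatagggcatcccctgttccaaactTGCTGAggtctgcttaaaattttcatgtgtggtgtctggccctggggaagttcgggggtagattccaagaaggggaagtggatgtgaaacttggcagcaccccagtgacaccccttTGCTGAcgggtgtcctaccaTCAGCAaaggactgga

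C1qb (chr5:154407828-154408077, minus strand): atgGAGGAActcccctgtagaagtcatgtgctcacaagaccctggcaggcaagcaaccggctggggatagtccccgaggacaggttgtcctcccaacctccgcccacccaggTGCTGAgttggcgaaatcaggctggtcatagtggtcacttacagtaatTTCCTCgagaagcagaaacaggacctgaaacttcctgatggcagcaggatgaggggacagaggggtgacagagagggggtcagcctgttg

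Fcna (chr3:28847238-28847487, minus strand): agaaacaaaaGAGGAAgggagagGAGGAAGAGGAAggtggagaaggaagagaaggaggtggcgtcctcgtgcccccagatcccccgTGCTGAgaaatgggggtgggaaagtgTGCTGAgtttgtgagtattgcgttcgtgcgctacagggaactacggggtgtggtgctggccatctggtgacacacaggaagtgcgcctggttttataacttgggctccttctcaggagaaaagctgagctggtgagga

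Cd5l (chr2:175088665-175088914, plus strand): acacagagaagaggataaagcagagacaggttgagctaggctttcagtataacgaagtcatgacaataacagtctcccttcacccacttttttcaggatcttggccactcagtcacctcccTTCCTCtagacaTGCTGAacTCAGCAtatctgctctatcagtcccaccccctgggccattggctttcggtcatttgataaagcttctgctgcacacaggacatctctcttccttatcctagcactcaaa

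Clec4f (chr4:117696408-117696657, minus strand): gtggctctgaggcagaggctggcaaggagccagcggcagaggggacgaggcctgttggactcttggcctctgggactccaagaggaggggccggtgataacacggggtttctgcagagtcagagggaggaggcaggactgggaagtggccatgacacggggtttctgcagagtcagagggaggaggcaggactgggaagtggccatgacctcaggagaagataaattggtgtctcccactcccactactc

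GAGGAA occurred in the windows of Cd5l, Fcna, C1qb, Adgre1 and Marco, 5 of 9, and in 23.3% of the 33469 promoter windows of the same length. TGCTGA occurred in Cd5l, Fcna, C1qb, C1qa and Adgre1, also 5 of 9, against 15.1% of all windows. Of 4 other motifs searched on both strands, TATAAA occurred in 2 of 9 windows (12.9% of all) and the IRF-ETS composite element in 1 (2.48%), while the E-box CACGTG (5.59%) and the DR4 element of LXR (0.00299%) occurred in 0. The windows of Clec4f, Cd163 and Vsig4 held neither GAGGAA nor TGCTGA. These matches describe letters only and no binding was measured.

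Within the myclobutanil group replicate 1 was the highest of the 3 arrays in 8 of 8 genes, in Adgre1 by a narrow margin, and replicate 3 was the lowest in 7 of 8, Cd163 being the exception. In the propiconazole group replicate 3 was the highest in 6 of 8 genes, and in the control and triadimefon groups no replicate was the highest in more than 3. Replicate 1 stood below the control mean by 28.5% (Cd5l) to 94.8% (Adgre1) of the distance of replicates 2 and 3, with a median of 45.6% over the 8 genes. It was still below all 9 arrays of the other groups in 7 of 8 genes, C1qb excepted. The median of the same share was 67.4% over the 419 other genes called without this array, and 81.3% over the 152 of them called lower, sets that were chosen on replicates 2 and 3.

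**Figure D2:**
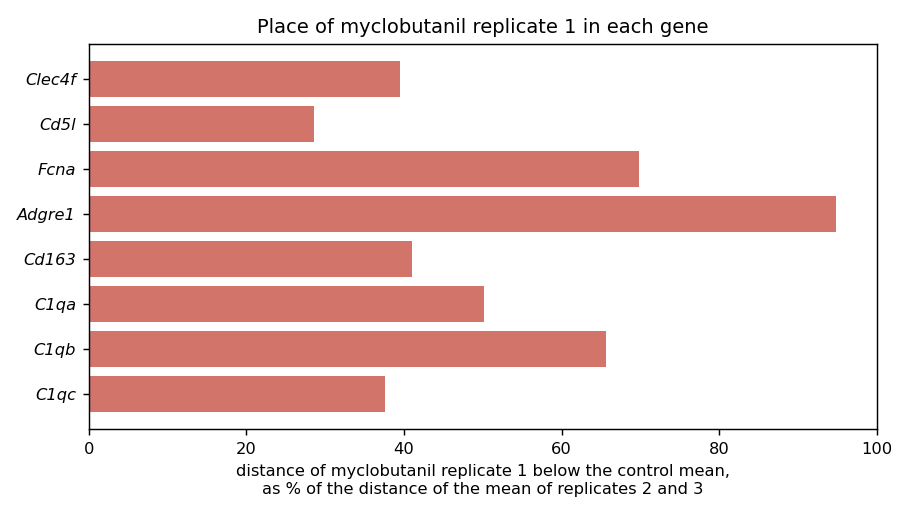
Distance of myclobutanil replicate 1 below the control mean in each gene, as a percentage (x axis) of the distance of the mean of replicates 2 and 3. Bars run from 28.5% in Cd5l to 94.8% in Adgre1.

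Without myclobutanil replicate 1, with the remaining 11 arrays normalized and fitted again, all 8 genes fell. The differences were -1.73 ± 0.145 for Cd5l, -1.69 ± 0.102 for Clec4f, -1.21 ± 0.113 for C1qa, -1.003 ± 0.0638 for Fcna and -0.932 ± 0.0930 for C1qc (limma adjusted p = 0.000715, 0.000141, 0.00146, 0.000141 and 0.00217). They were -0.752 ± 0.163 for C1qb, -0.646 ± 0.129 for Cd163 and -0.309 ± 0.0723 for Adgre1 (limma adjusted p = 0.0398, 0.0318 and 0.0489). Over all genes 1.36% were called lower in that fit. Other arrays cut the count instead: it was 1 of 8 (Fcna) without any one of control replicates 1, 2 and 3, 4 without myclobutanil replicate 2 and 2 (C1qa and Fcna) without myclobutanil replicate 3. Leaving out an array of propiconazole or triadimefon, which enters through the shared spread, gave 3 to 6. Shares of all genes called in these other fits are not given here. The counts therefore do not show whether calls changed in these genes alone or across the arrays.

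With propiconazole, given at the same dose, all 8 differences from control were below 0 and none passed. Clec4f stood at -0.145 ± 0.224, Cd5l at -0.0632 ± 0.277, C1qa at -0.139 ± 0.156, C1qb at -0.0538 ± 0.150, C1qc at -0.0844 ± 0.141, Adgre1 at -0.0840 ± 0.0633 and Cd163 at -0.0189 ± 0.133. Fcna stood at -0.175 ± 0.0829, the one gene of the 8 whose propiconazole and control arrays did not overlap, its control arrays being higher; groups were apart in this direction in 16.9% of all genes. None of the 8 passed limma, where 1.68% of all genes did in either direction, and 0 had an unadjusted p under 0.05 (16.3% of all genes). The intervals left room for sizeable differences in either direction in some genes. That of Clec4f ran from -0.636 to 0.346 and that of Cd5l from -0.671 to 0.544. Without myclobutanil replicate 1, which changes the shared spread, they ran from -0.346 to 0.0603 and from -0.350 to 0.224. None of the 8 passed limma in that fit, and 1 (Fcna) had an unadjusted p under 0.05 (24.6% of all genes).

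Triadimefon, at 175 mg/kg/day, gave differences from -0.2501 ± 0.0829 in Fcna to 0.160 ± 0.133 in Cd163. Between these lay C1qa at -0.236 ± 0.156, C1qb at -0.215 ± 0.150, Clec4f at -0.176 ± 0.224, Cd5l at -0.175 ± 0.277, C1qc at -0.149 ± 0.141 and Adgre1 at 0.0684 ± 0.0633. None of the 8 passed limma, where 0.836% of all genes did in either direction. Fcna was the one with an unadjusted p under 0.05 (limma adjusted p = 0.221), as 14.8% of all genes had. In Fcna, C1qa and C1qc the triadimefon arrays lay below the control arrays without overlap, 3 of 8 genes against 17.2% of all genes. Without myclobutanil replicate 1, which changes the shared spread, Fcna fell by 0.253 ± 0.0571 with triadimefon (limma adjusted p = 0.0464), and 1.12% of all genes were called lower. The 3 comparisons with control share the same control arrays.

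**Figure D3:**
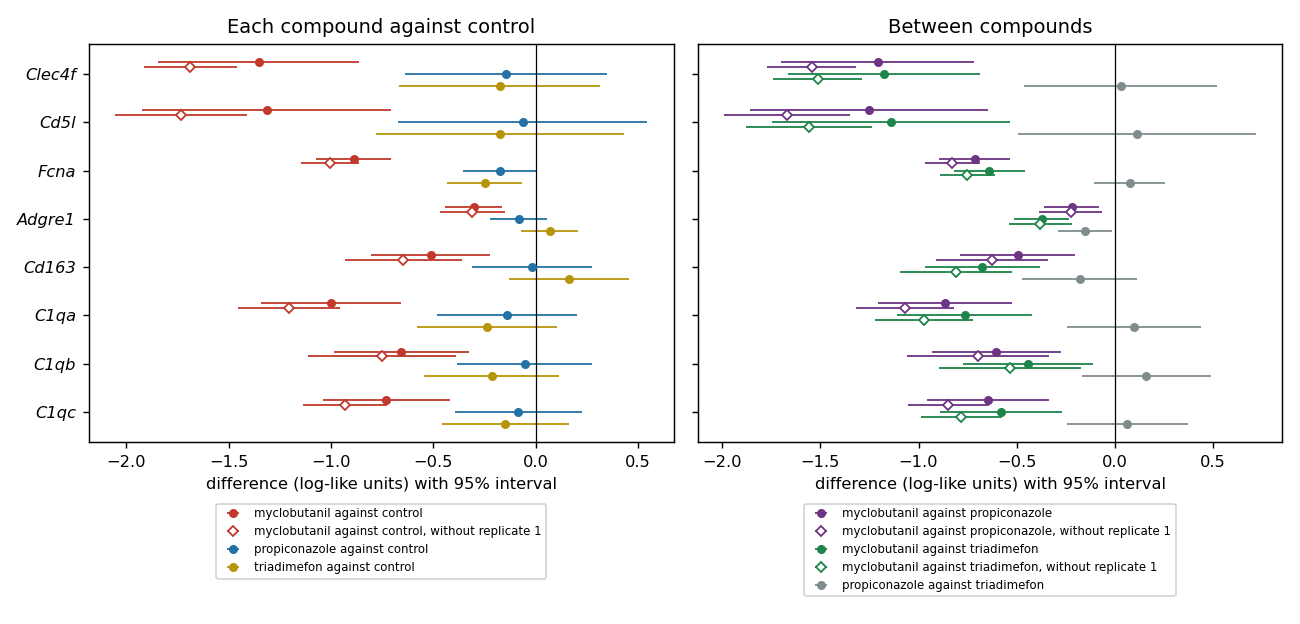
Difference of each gene in log-like units (x axis) with its 95% interval from limma, for each compound against control (left) and between compounds (right). Filled circles use all 12 arrays and open diamonds leave out myclobutanil replicate 1; the intervals of myclobutanil exclude 0 in all 8 genes in each of its comparisons.

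Compared directly at the matched dose of 300 mg/kg/day, myclobutanil was below propiconazole on all arrays in 8 of 8 genes, as in 7.36% of all genes, but no gene passed. The differences ran from -1.25 ± 0.277 in Cd5l (95% interval -1.86 to -0.645) and -1.21 ± 0.224 in Clec4f (-1.70 to -0.716) to -0.220 ± 0.0633 in Adgre1 (-0.359 to -0.0805). In this comparison limma called 0% of all genes, and 8 of 8 members had an unadjusted p under 0.05, against 11.1% of all genes. Fcna, at -0.714 ± 0.0829, had the smallest p of all 21729 probe sets (limma adjusted p = 0.0586). Without myclobutanil replicate 1, Clec4f, Cd5l, C1qa, C1qc and Fcna passed, with differences of -1.55 ± 0.102, -1.67 ± 0.145, -1.07 ± 0.113, -0.847 ± 0.0930 and -0.827 ± 0.0638 (limma adjusted p = 0.00043, 0.00205, 0.00999, 0.00999 and 0.000973). These 5 were among 8 genes called lower in all, 0.068% of those tested in that fit. C1qb, Cd163 and Adgre1 did not pass there, at -0.697 ± 0.163, -0.627 ± 0.129 and -0.225 ± 0.0723.

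Against triadimefon, whose dose was lower, Fcna passed at -0.639 ± 0.0829 (95% interval -0.821 to -0.457, limma adjusted p = 0.0471), 1 of 8 genes where 0.0253% of all genes were called lower. The other 7 stood between -1.18 ± 0.224 (Clec4f) and -0.372 ± 0.0633 (Adgre1), and 7 of 8 genes had arrays that did not overlap, C1qb excepted, as in 5.69% of all genes. All 8 had an unadjusted p under 0.05, against 8.46% of all genes. The Fcna call ended when any single array other than myclobutanil replicate 1 was left out. Without myclobutanil replicate 1, 6 of 8 genes passed (Clec4f, Cd5l, C1qa, C1qc, Cd163 and Fcna), with 0.102% of all genes called lower. Between propiconazole and triadimefon none of the 8 passed and 1 (Adgre1, at -0.152 ± 0.0633) had an unadjusted p under 0.05 (3.7% of all genes); limma called 0% of all genes.

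In 6 of the 8 genes the group means fell in the order control, propiconazole, triadimefon, myclobutanil. Adgre1 and Cd163 were highest with triadimefon instead (0.114 and 0.577 against 0.0456 and 0.416 in control). Neighbours in these orders other than the lowest pair overlapped from array to array, apart from control and propiconazole in Fcna.

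Among other genes of macrophages a few passed the test with myclobutanil. Of 18 regulators and markers of macrophages tested, Folr2, a folate receptor of resident macrophages, stood at -0.324 ± 0.0645 and the transcription factor gene Maf at -0.525 ± 0.114, and both fell (limma adjusted p = 0.0362 and 0.0465). None was called higher, 14 of the 18 differences were below 0, and their median was -0.123. Without myclobutanil replicate 1 the call of Maf ended (limma adjusted p = 0.0682), and 4 genes passed, all lower: Folr2, Csf1r, Cd68 and Fcgr3a. Csf1r, the receptor for the growth factor that macrophages need to survive, stood at -0.431 ± 0.101 (limma adjusted p = 0.0578), chosen here after its value was seen, as were the pan-macrophage gene Cd68 at -0.372 ± 0.161, the endotoxin co-receptor gene Cd14 at 0.0839 ± 0.132 and the lysozyme gene Lyz2 at 0.273 ± 0.191. With myclobutanil 7 of the 18 had an unadjusted p under 0.05, all lower, against 23.5% of all genes in either direction. With propiconazole and triadimefon 0 of the 18 passed limma. An unadjusted p under 0.05 was found in 3 and 4 of them, against 16.3% and 14.8% of all genes. The smallest p of the 18 belonged to Maf at -0.314 ± 0.114 with propiconazole. With triadimefon it belonged to Csf1, the growth factor itself, at -0.235 ± 0.0787.

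The receptors that bind dying cells were lower with myclobutanil in part. Of 11 genes for the uptake of dying cells, the receptor kinase genes Axl and Mertk fell, with differences of -0.426 ± 0.0701 and -0.262 ± 0.0554 (limma adjusted p = 0.0173 and 0.0420), and 9 did not pass. The call of Mertk ended without myclobutanil replicate 1 (limma adjusted p = 0.0543). With propiconazole Axl stood at -0.220 ± 0.0701 and with triadimefon Mertk at -0.136 ± 0.0554, the smallest p of each, neither called. Of 7 genes of heme and iron handling, Blvrb, which reduces biliverdin, rose by 0.391 ± 0.0824 with myclobutanil (limma adjusted p = 0.0417, and 0.0535 without replicate 1). With propiconazole Blvrb rose by 0.488 ± 0.0824 and the heme oxygenase gene Hmox1 by 1.76 ± 0.290 (limma adjusted p = 0.0218 and 0.0199), and Hmox1 stood at 1.06 ± 0.290 with myclobutanil and 1.001 ± 0.290 with triadimefon, neither called. The 3 myclobutanil arrays of Hmox1 lay above its 3 control arrays. Of 9 MHC class II genes none passed with any compound (2, 1 and 1 with an unadjusted p under 0.05 for myclobutanil, propiconazole and triadimefon, as 23.5%, 16.3% and 14.8% of all genes had), with the smallest p each time in Ciita, the class II transactivator, at -0.146 ± 0.0399, -0.0973 ± 0.0399 and -0.0964 ± 0.0399. The cathepsin gene Ctss passed, lower with myclobutanil, when replicate 1 was left out (limma adjusted p = 0.0231).

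Among the other complement genes the median differences were closer to 0. Of 6 other classical pathway genes tested, 0 passed limma with any compound and 0 had an unadjusted p under 0.05 with myclobutanil; the median difference was -0.0249, and the proteases that C1q activates, C1r and C1s, stood at -0.00281 ± 0.121 and -0.0747 ± 0.114. C1qbp, named for binding C1q, had the smallest p with myclobutanil (0.167 ± 0.0835), and the C1 inhibitor gene Serping1 with propiconazole (-0.327 ± 0.158) and triadimefon (-0.242 ± 0.158). Of 6 lectin pathway genes none passed, with 1, 1 and 2 at an unadjusted p under 0.05 for the 3 compounds. The mannose-binding lectin gene Mbl2 had the smallest p each time, at -0.512 ± 0.132, -0.550 ± 0.132 and -0.349 ± 0.132. Mbl2 passed with propiconazole once myclobutanil replicate 1 was left out (limma adjusted p = 0.0436). Of 12 genes of the alternative and terminal pathways, 11 did not pass with myclobutanil. Cfd, the serine protease factor D, fell by 0.564 ± 0.0711 (limma adjusted p = 0.00872). Without replicate 1 the properdin gene Cfp and C8g passed too, both lower. With propiconazole and triadimefon the smallest p of the 12 was that of C8a, at -0.350 ± 0.0853 and -0.184 ± 0.0853. It passed with propiconazole without myclobutanil replicate 1 (limma adjusted p = 0.0423). An unadjusted p under 0.05 was found in 5 lower and 1 higher of the 12 with myclobutanil. It was found in 5 lower with propiconazole and 0 with triadimefon. Over all genes, in either direction, these shares were 23.5%, 16.3% and 14.8% for the 3 compounds. Of 8 complement receptors and surface regulators none passed (2, 0 and 0 with an unadjusted p under 0.05), with the smallest p in the integrin gene Itgb2 for myclobutanil (-0.221 ± 0.0793) and in Cd93 for propiconazole (0.150 ± 0.0793) and triadimefon (0.138 ± 0.0793).

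**Figure D4:**
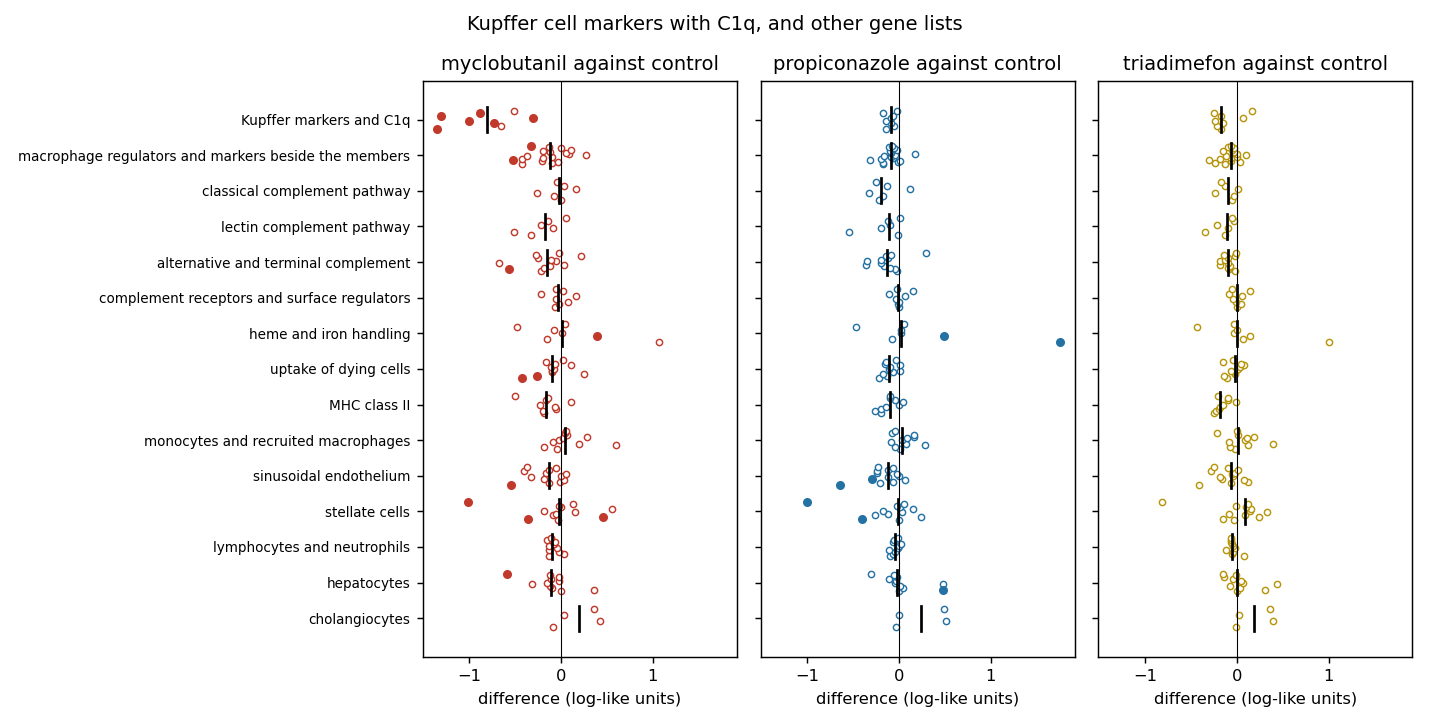
Difference from control in log-like units (x axis) of each tested gene in the Kupffer cell and C1q set and in 14 other lists, for the 3 compounds. Filled points passed limma, open points did not, and black bars are list medians; with myclobutanil the median of the set is -0.810, while the medians of the other lists lie between -0.177 and 0.196.

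Markers of other liver cells moved with myclobutanil as well, and their part in the result was not tested. The mean level of 13 sinusoidal endothelium markers was 0.754 to 0.843 on the myclobutanil arrays against 0.912 to 1.02 in control; Kdr, a VEGF receptor gene, fell by 0.549 ± 0.114 (limma adjusted p = 0.0407) and 12 did not pass. Without replicate 1 Dnase1l3, an endothelial nuclease gene, passed too. That mean was as low with propiconazole (0.769 to 0.841), where Kdr and Tek, the angiopoietin receptor gene, fell (-0.640 ± 0.114 and -0.298 ± 0.0555, limma adjusted p = 0.0268 and 0.0283) and none of the 8 Kupffer cell genes passed. The 10 markers tested from the lymphocyte and neutrophil list, all dim, averaged 0.00465 to 0.0295 with myclobutanil and 0.0812 to 0.114 in control. None was called (4 at an unadjusted p under 0.05). The neutrophil genes listed, Mpo and Elane, were not among the 10 tested, so these markers do not read neutrophils. The 11 hepatocyte markers averaged 2.99 to 3.21 with myclobutanil and 3.16 to 3.25 in control. Among them Cyp2e1, a P450 gene, fell by 0.588 ± 0.107 with myclobutanil (limma adjusted p = 0.0253) and 10 did not pass. Alb, 1 of these 10, had a mean of 4.03 in both groups after quantile normalization, a difference of 0, and so could not pass. Apoa1, an apolipoprotein gene of hepatocytes, stood at 0.356 ± 0.0888 with myclobutanil (limma adjusted p = 0.0698) and passed without replicate 1 (0.0171). Of 12 stellate cell markers, Lox and Lrat fell and Rgs5 rose with myclobutanil (limma adjusted p = 0.0179, 0.0322 and 0.0344), with list means of 0.383 to 0.638 against 0.469 to 0.605. The 4 cholangiocyte markers averaged 0.662 to 0.927 against 0.577 to 0.631, none called (2 at an unadjusted p under 0.05). The 11 monocyte and recruited macrophage markers averaged 0.264 to 0.479 against 0.244 to 0.344, overlapping, with none called (2 at an unadjusted p under 0.05); Cx3cr1, a chemokine receptor gene, stood at -0.186 ± 0.0438, and S100a9, a calcium-binding protein gene of neutrophils and monocytes, at 0.593 ± 0.186. Unadjusted p values under 0.05 were found in 23.5% of all genes in this comparison. With propiconazole Lox and Lrat fell (-1.003 ± 0.168 and -0.399 ± 0.0690) and Apoa1 rose by 0.485 ± 0.0888 (limma adjusted p = 0.0210, 0.0231 and 0.0278). The smallest p values in the remaining lists were those of Trem2 (-0.0923), Cd2 (-0.106) and Epcam (0.517) with propiconazole, none called. No marker passed with triadimefon, where Kdr stood at -0.408, Lox at -0.821, Apoa1 at 0.304, Epcam at 0.391, Cd2 at -0.114 and Cx3cr1 at -0.0793; Lox and Apoa1 passed once myclobutanil replicate 1 was left out (limma adjusted p = 0.0373 and 0.0396). A level of 0 on this scale does not mean absence, so no marker could be read as missing.

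The genes most like the 8 over the 12 arrays were found by the Pearson correlation of each gene with the mean of the 8 standardized genes, which describes these arrays and largely repeats the split of myclobutanil from the rest. They were Ccl6, a chemokine gene of myeloid cells (r of 0.956), Csf1r (0.914), Cfd (0.909), Folr2 (0.882), the apolipoprotein gene Apoc3 (0.868), the carboxylesterase gene Ces1c (0.860), Axl (0.859) and Tnfaip8l2 (0.855). Without myclobutanil replicate 1, Ccl6, Apoc3, Csf1r and Cfd ranked 1, 2, 3 and 4 in this correlation. Folr2, Axl, Tnfaip8l2 and Ces1c then ranked 9, 18, 19 and 20 (r of 0.898, 0.855, 0.854 and 0.853). Ccl6 averaged 2.10 ± 0.173 (SD, n = 3) in control, 1.34 ± 0.375 with myclobutanil, 2.00 ± 0.166 with propiconazole and 1.88 ± 0.0778 with triadimefon. Apoc3 and Ces1c, which hepatocytes express, averaged 3.67 ± 0.0144 and 3.26 ± 0.0193 in control and 3.45 ± 0.177 and 2.82 ± 0.215 with myclobutanil. Among the 8 genes themselves, Clec4f followed the mean of the other 7 most closely (r of 0.988, and 0.956 after the group means were removed). Adgre1 followed it least (0.740, and -0.0404 after the group means were removed). In the myclobutanil group, where replicate 1 was the highest array, Clec4f had an SD of 0.597, against 0.0513 to 0.149 in the other groups. The Adgre1 myclobutanil arrays spanned 0.0163 units. These correlations were not computed without replicate 1, so they do not show covariation between rats apart from that array.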

How the data were processed

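Total RNA of each liver was measured on 1 array without pooling, per the labels' protocols. Each probe set has a deposited score that looks like a log value. How the authors summarised and normalized it is not given in the sources used here, nor is the base. The plan assumed that normalized values would be kept and others quantile normalized. Array medians spanned 0.138 and the median SD within groups was 0.0736, which called for quantile normalization. That span rested on myclobutanil replicate 1, as the medians of the other 11 arrays lay between 0.0182 and 0.0552. The fit without this array was quantile normalized too and was not run on deposited values. Control probe sets (57 of 31099) and the 30% with the lowest mean (9313) were left out, which left 21729. In the platform annotation 20826 probe sets name 1 gene, 436 name several and 9780 name none. Symbols came from the GRCr8 RefSeq table by Entrez ID (20764) or stayed as annotated (68). A gene is represented by its brightest tested probe set. The precision is limited by the number of arrays: the median 95% interval of a difference reached 0.141 to either side.

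limma 3.58.1 in R 4.3.3 was fitted to the 4 group means of all 12 arrays (8 residual degrees of freedom, intensity trend), two-sided, with Benjamini-Hochberg adjustment over the 21729 probe sets, separately in the 6 comparisons, and calls under 0.05. The fit was tested on simulated data. Rats were separate, so p-values measure the spread between animals. No 2 arrays held identical values. Alternatives were median centring, deposited values, no filter, a 50% filter, the 2 groups alone, array weights, the replicate block, the mean of a gene's probe sets and each array left out. Each member measured had 1 tested probe set, so the mean of probe sets could only repeat the main fit. The members and lists were chosen with earlier results of these data known. Named are all members, per list and compound against control up to 3 called genes or the 1 with the smallest p, and the 8 genes most like the members; other genes, and the promoter motifs, were picked with the data in view. Promoter sequences are RefSeq's. Python 3.11.15 with pandas 2.3.3 and matplotlib 3.10.9 drew the figures.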

Additional observations from a re-analysis of the deposited data

How the results depend on the processing

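Of the 8 genes measured, the 6 called for myclobutanil against control became 3 (Clec4f, C1qa and Fcna) with the replicate block and 0 when only the 2 groups were fitted; leaving out 1 array at a time gave 1 to 8. The differences of the 8 genes stayed below 0 under every alternative in which they were tested (20 for each gene but Adgre1, which the 50% filter left out), and Fcna kept its call in 19 of 20, ending when only the 2 groups were fitted (limma adjusted p = 0.0530). Over the other settings run, 4 to 8 genes were called. The mean of a gene's probe sets, counted among the 20, repeated the main fit and is no separate check. For triadimefon against control the 0 calls became 1 (Fcna) with array weights, and 0 to 1 with 1 array left out. For myclobutanil against propiconazole the 0 calls became 1 (Fcna) with median centring, 1 (Fcna) with the 50% filter and 7 with array weights, and 0 to 5 with 1 array left out. For myclobutanil against triadimefon the 1 call became 0 with no filter, 0 with the replicate block, 0 with the 2 groups alone and 8 with array weights, and 0 to 6 with 1 array left out. For propiconazole against control and propiconazole against triadimefon no alternative gave a call. The array-weights fit stopped before it converged, so its counts are less sure. Shares of all genes called under these alternatives are not given here, so the counts do not show changes particular to these genes. The cause of these changes was not tested. Differences near 0 that were never called changed sign: against control, propiconazole gave 0.000849 for C1qb and 0.00399 for Cd163 with median centring, and with 1 array left out ran from -0.134 to 0.0490 for C1qb, -0.144 to 0.106 for Cd163 and -0.184 to 0.0561 for Cd5l. Propiconazole against triadimefon ran from -0.0352 to 0.0768 for Clec4f, -0.0102 to 0.173 for C1qa, -0.000587 to 0.265 for C1qb and -0.0286 to 0.124 for C1qc with 1 array left out. The replicate numbers gave no consistent sign of pairing the rats, which does not show that they were unpaired. Deviations of same-numbered arrays from their group means correlated between -0.494 and 0.495, above 0.1 in 3 of 18 pairs. Of 12 arrays, 3 correlated best with an array of their own number. With 3 arrays per group, 1 array can decide a call.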
